A study of Mus musculus with 6 samples.

Results

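The 10 immediate early genes Egr1, Fos, Fosb, Fosl1, Jun, Junb, Myc, Ier2, Ier3 and Phlda1 were examined in whole pancreas of mice without Rkip-1. They are a list chosen by name, with earlier results of these data known. Every probe set whose platform annotation gave 1 gene, that gene being on the list, was taken, which gave 12 probe sets among 45101 and 10 genes among 18193. Jun and Fosl1 had 2 probe sets each. The mutant mice carried the Rkip-1 knockout (KO) and were compared with wild-type (WT) mice of the same colony, 3 mice in each group with 1 Affymetrix array per sample. All were adults of 8 weeks on a C57BL/6 background, their pancreases were taken out quickly after death, and no treatment is named. The labels call the samples biological replicates and state neither sex, litter, batch nor the deleted part of the gene. The title of the series names beta cell proliferation as its subject, and beta cells make up little of a whole pancreas.

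Immediate early genes are transcribed within minutes of a stimulus, without new protein synthesis, and their mRNAs are short-lived. ERK, the last kinase of a MAP kinase cascade, phosphorylates ternary complex factors that act with SRF at their promoters, and JNK, p38 and cAMP signals act through other promoter elements. RKIP, the product of Pebp1, is known as an inhibitor of the ERK cascade. In exocrine pancreas these genes are known to respond to secretagogues, to injury and to the handling of tissue after death.

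Values are log2 RMA values, in which arrays have been brought to a common distribution. The 6 array medians lay between 2.97 and 3.02, the upper quartiles between 4.53 and 4.56, and the arrays correlated at 0.989 to 0.993. A probe set under the median has no established signal here. A difference against such a level, or against one under the upper quartile, may be too small. Levels of different probe sets cannot be set against each other. Pebp1 itself measured 5.89, 6.50 and 5.71 in KO replicates 1, 2 and 3, against 9.81, 10.01 and 9.81 in WT replicates 1, 2 and 3. Its dimmer probe set measured 2.76, 3.35 and 3.56 in KO, with replicate 1 under the array median, against 8.58, 8.53 and 8.45 in WT. Of the pancreas markers, 10 of 10 acinar and 7 of 8 islet genes had a mean above the upper quartile. The summed acinar level was 17.20 to 17.21 in KO and 17.22 in WT. That sum comes from enzyme probe sets near the highest value of any array, 14.57, where a change may be hidden. The dimmer acinar factors Ptf1a, Bhlha15 and Rbpjl differed by -0.56, -0.18 and -0.08 (KO minus WT), with overlapping groups in each. Xist, the RNA of the silenced X in females, measured 9.11 and 9.79 in KO replicates 2 and 3 and 9.09 in WT replicate 3. It was 4.43 in KO replicate 1 and 4.30 or lower in WT replicates 1 and 2, so that the sexes were spread unequally over the genotypes.

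Egr1, Jun, Phlda1, Ier2 and Myc were lower in all KO arrays than in all WT arrays, by 0.50 to 1.10 on the log2 scale, and Junb was higher in all KO arrays. Fos, Fosb, Fosl1 and Ier3 had overlapping groups. By limma, 0 of the 10 genes passed an adjusted p of 0.05 over all probe sets, against 0.132% of all genes, and the lowest adjusted p among them was 0.176. At an unadjusted limma p under 0.05, 5 of the 10 were lower in KO and 2 were higher, where the shares of all genes were 5.58% and 4.55%. The groups did not overlap with KO lower in 5 of the 10 and with KO higher in 1, where the shares of all genes were 7.56% and 6.87%. The median log2 difference of the 10 genes was -0.44, against -0.00 over all genes. It was -0.24 without WT replicate 3, and -0.33 to -0.59 with any other array left out. In RNA of a whole organ, fewer cells of a type and less RNA per cell cannot be told apart.

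**Figure D1:**
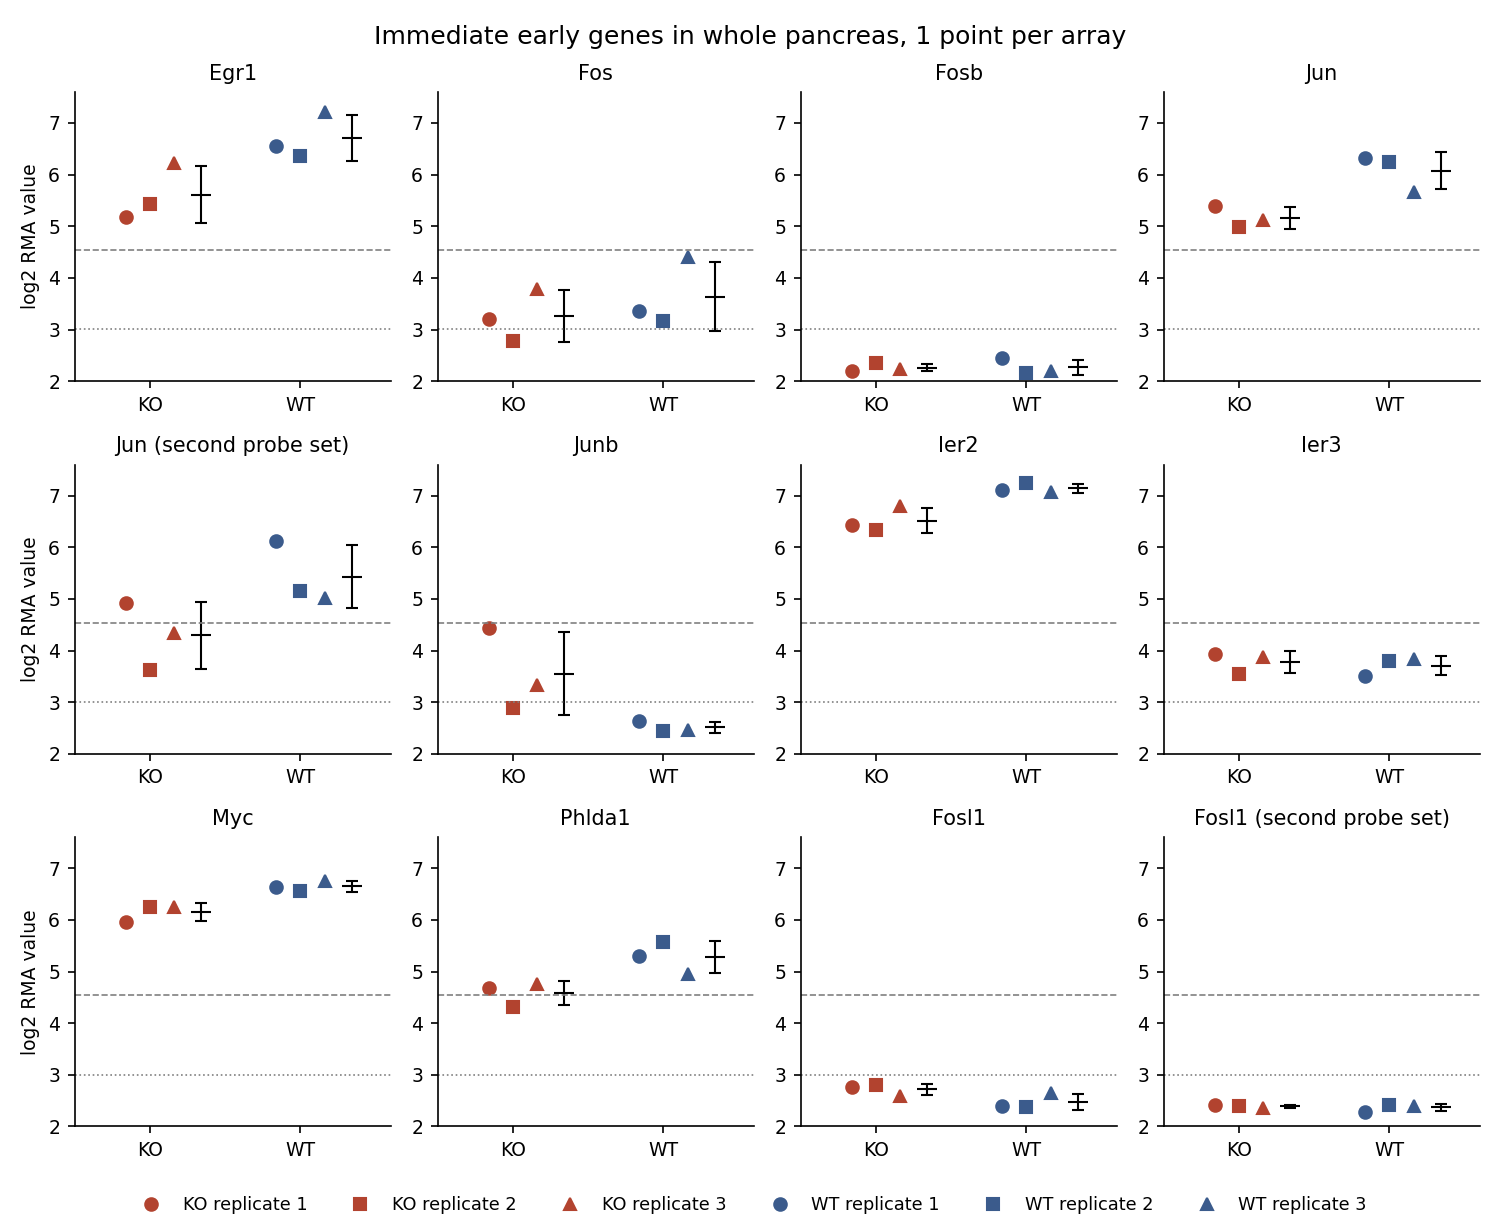
Log2 RMA values of the 12 probe sets by array, KO left and WT right, with replicates as symbols and the mean ± SD in black (n = 3 each). The dotted line is the mean array median of 3.01 and the dashed line the mean upper quartile of 4.54; Fosb and Fosl1 stay under the median in all 6 arrays, and the KO points of Egr1, Jun, Ier2, Myc and Phlda1 all lie below the WT points.

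Egr1 encodes a zinc finger transcription factor whose promoter holds several serum response elements, and it is a common readout of ERK activity. Its probe set measured 5.17, 5.43 and 6.23 in KO replicates 1, 2 and 3, against 6.56, 6.36 and 7.22 in WT replicates 1, 2 and 3. The highest KO value lay 0.13 below the lowest WT value, and replicate 3 was the highest of its group in both genotypes. The means were 5.61 ± 0.55 in KO and 6.71 ± 0.45 in WT (SD, n = 3 each). The KO level was 2.15-fold lower (95% interval 1.39 to 3.31, adjusted limma p 0.296). Over the alternatives the adjusted limma p ran from 0.0207 to 0.608. The lowest came with a block for replicate number, which the labels do not call a pairing. The KO and WT ranges spanned 1.06 and 0.86, nearly as much as the difference of -1.10 between the means. Of all genes, 0.0879% had a difference at least as low.

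Fos, the partner that JUN proteins bind in the AP-1 factor, measured 3.21, 2.78 and 3.78 in KO replicates 1, 2 and 3, against 3.36, 3.16 and 4.40 in WT replicates 1, 2 and 3. The groups overlapped, and replicate 3 was again the highest in each genotype. The difference was -0.38 (95% interval -1.10 to 0.34, adjusted limma p 0.791). Without WT replicate 3 it was 0.00, so the lower KO mean rests on that array. No value reached the upper quartile and KO replicate 2 lay under the array median. Fosb and Fosl1, which encode the further FOS family proteins FOSB and FRA1, stayed under the array median in all 6 arrays. Fosb lay between 2.20 and 2.35 in KO and between 2.17 and 2.44 in WT, with a difference of -0.01. Fosl1 lay between 2.60 and 2.81 in KO and between 2.37 and 2.64 in WT at its brighter probe set, with a difference of 0.25 (adjusted limma p 0.562), and the difference was 0.02 at its second probe set.

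Jun encodes the AP-1 subunit that JNK phosphorylates and that activates its own promoter. The brighter of its probe sets measured 5.39, 4.98 and 5.12 in KO replicates 1, 2 and 3, against 6.33, 6.24 and 5.67 in WT replicates 1, 2 and 3. WT replicate 3 lay nearest to the KO arrays, with a gap of 0.27 to the highest of them. The KO level was 1.88-fold lower (95% interval 1.43 to 2.47, adjusted limma p 0.176). Without WT replicate 3 the log2 difference was -1.12 in place of -0.91 and passed (adjusted limma p 0.0306), in a range over the alternatives from 0.0306 to 0.558. The second probe set measured 4.92, 3.62 and 4.33 in KO replicates 1, 2 and 3, against 6.13, 5.15 and 5.01 in WT replicates 1, 2 and 3. Its groups were apart by 0.09 and its difference was -1.14 (adjusted limma p 0.389). Both probe sets thus had KO below WT in all arrays, but they read the same 6 RNA samples and are not independent.

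Junb, an AP-1 subunit that activates transcription less strongly than JUN and can oppose it, measured 4.44, 2.88 and 3.34 in KO replicates 1, 2 and 3, against 2.64, 2.44 and 2.46 in WT replicates 1, 2 and 3. It was the one listed gene with every KO array above every WT array, and KO replicate 1 stood far above the others. The means were 3.55 ± 0.80 in KO and 2.51 ± 0.11 in WT (SD, n = 3 each). The difference was 1.04 (95% interval of the fitted value 0.34 to 1.74, adjusted limma p 0.389). Its size is uncertain, since the WT arrays and KO replicate 2 lay under the array median and KO replicate 1 raised the KO mean. Without KO replicate 1 the difference was 0.60 (adjusted limma p 0.358).

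The 250 bases before the annotated starts of Jun, Junb and Fos are shown from RefSeq (GRCm38.p6), since these AP-1 genes differed in direction and in spread between arrays. Each is written 5′ to 3′ on the strand of its gene, Jun at chr4:95052223-95052472 on the minus strand, Junb at chr8:84978749-84978998 on the minus strand and Fos at chr12:85473640-85473889 on the plus strand. Capitals mark matches to TGACATCA, TGACG and TATAAA.
Jun: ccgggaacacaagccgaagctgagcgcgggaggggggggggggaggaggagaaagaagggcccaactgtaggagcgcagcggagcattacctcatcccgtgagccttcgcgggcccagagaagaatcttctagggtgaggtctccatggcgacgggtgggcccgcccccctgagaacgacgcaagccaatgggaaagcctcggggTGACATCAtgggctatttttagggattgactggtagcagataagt
Junb: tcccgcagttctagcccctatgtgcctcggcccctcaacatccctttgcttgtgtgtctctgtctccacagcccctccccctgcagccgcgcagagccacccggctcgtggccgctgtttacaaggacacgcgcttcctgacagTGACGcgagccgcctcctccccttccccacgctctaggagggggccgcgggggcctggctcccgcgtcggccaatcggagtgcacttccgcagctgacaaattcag
Fos: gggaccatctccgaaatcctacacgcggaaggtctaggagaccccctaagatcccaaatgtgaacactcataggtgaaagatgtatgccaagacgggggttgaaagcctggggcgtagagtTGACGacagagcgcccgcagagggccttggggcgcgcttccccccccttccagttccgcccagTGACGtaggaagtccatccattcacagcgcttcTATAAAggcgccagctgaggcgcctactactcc
Promoter sequences were matched for 5 of the 10 genes, namely Jun, Junb, Fos, Fosb and Ier3. The motifs were searched on both strands in the first 250 bases of 32851 promoter entries, the part before the start each entry uses. TGACATCA, an AP-1 and ATF site known from the human JUN promoter, was present for Jun at 45 to 38 bases before the start, and 2.93% of all promoters held it. TGACG, the core of the cAMP response element, was present for Fos at 2 places, the nearer at 66 to 62 bases before the start, and for Junb. Fosb held it as well, but its entry runs past the start that the gene table gives, and the match lies beyond that start. TGACG was held by 17.8% of all promoters and lies within the full element TGACGTCA, which none of the 5 held and 1.55% of all did. TATAAA was found for Fos alone among the 5, and in 12.4% of all promoters. None of the 5 held TGANTCA (6.75% of all promoters) or a CArG box, the site of SRF (1.47% of all). These matches describe letters in a window only. A site farther upstream than 250 bases would not be seen, and Egr1 was not among the matched genes. The search therefore cannot show that these genes lack SRF sites.

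Myc encodes a transcription factor of growth and cell division that dimerises with MAX. Its probe set measured 5.96, 6.24 and 6.25 in KO replicates 1, 2 and 3, against 6.63, 6.55 and 6.75 in WT replicates 1, 2 and 3. Arrays of a genotype lay close together, and the groups were apart by 0.31, the widest gap among the 10 genes. The KO level was 1.41-fold lower (95% interval 1.19 to 1.67, adjusted limma p 0.227).

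Ier2, a nuclear protein induced by serum and growth factors, measured 6.44, 6.32 and 6.79 in KO replicates 1, 2 and 3, against 7.11, 7.24 and 7.07 in WT replicates 1, 2 and 3. The KO arrays spread over 0.46 and the WT arrays over 0.18, and the groups were apart by 0.28. The KO level was 1.54-fold lower (95% interval 1.27 to 1.87, adjusted limma p 0.191). Phlda1, a pleckstrin homology domain protein induced by ERK signalling, measured 4.68, 4.31 and 4.75 in KO replicates 1, 2 and 3, against 5.30, 5.57 and 4.95 in WT replicates 1, 2 and 3. WT replicate 3 was its lowest WT array, and KO replicate 2 lay under the upper quartile. The KO level was 1.62-fold lower (95% interval 1.25 to 2.09, adjusted limma p 0.276). Ier3, a regulator of cell survival that is induced by NF-kappaB and ERK, lay between 3.54 and 3.94 in KO and between 3.51 and 3.83 in WT. Its groups overlapped and its difference was 0.07 (95% interval -0.22 to 0.37).

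**Figure D2:**
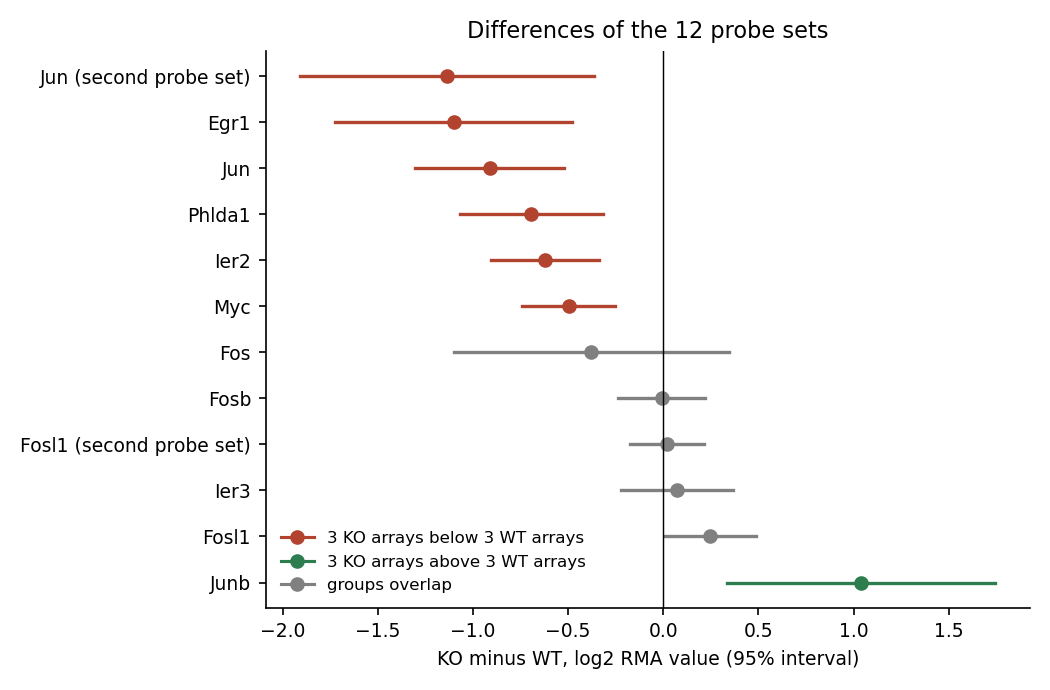
KO minus WT differences of the 12 probe sets on the log2 scale (points) with 95% intervals from the moderated standard error (lines). The intervals of Egr1, both Jun probe sets, Phlda1, Ier2 and Myc lie below 0, those of Junb and of the brighter Fosl1 probe set lie above 0, and none of the 12 passed the adjusted threshold.

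The genes that were lower in KO did not share one order of arrays. Centred on its own mean, Egr1 was highest in WT replicate 3 at 1.06 and lowest in KO replicate 1 at -0.99. Fos likewise was highest in WT replicate 3 at 0.95, and both were highest among the KO arrays in replicate 3. Jun was at 0.71 and 0.62 in WT replicates 1 and 2 and at 0.05 in WT replicate 3, and Phlda1 at 0.38, 0.64 and 0.02. WT replicate 3 was thus the highest array for Egr1 and Fos and the lowest WT array for Jun and Phlda1. The root mean square distance between centred profiles over the 6 arrays was 0.16 for Ier2 and Phlda1, 0.19 for Jun and Phlda1 and 0.19 for Ier2 and Myc. The listed gene nearest to Egr1 was Fos at 0.43, and Junb was farthest from Egr1 at 1.29.

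**Figure D3:**
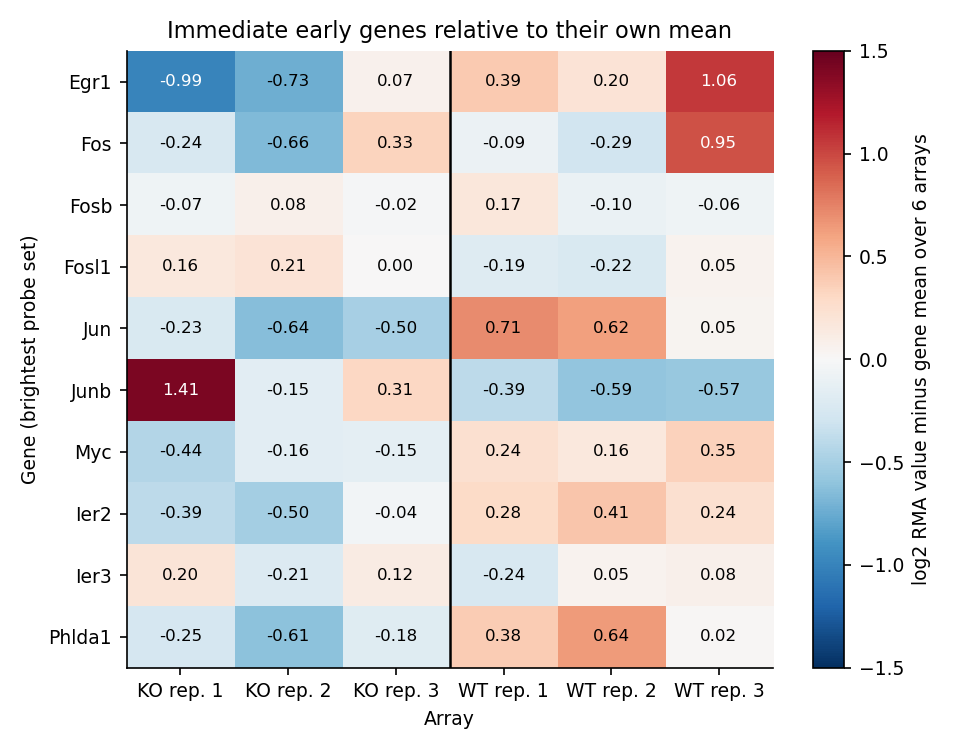
Log2 RMA value of each of the 10 genes at its brightest probe set minus its mean over the 6 arrays, KO arrays left of the line and WT arrays right of it. WT replicate 3 is the reddest cell for Egr1 (1.06) and Fos (0.95), WT replicates 1 and 2 are the reddest for Jun (0.71 and 0.62), and Junb stands out in KO replicate 1 (1.41).

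Of all genes outside the 10 whose mean lay above the upper quartile, 7135 in number, the profile nearest to that of Egr1 belonged to Asb11 (distance 0.33). It measured 4.45, 4.18 and 4.53 in KO, against 5.53, 5.22 and 5.64 in WT, and fell in KO (adjusted limma p 0.024). Its KO values lay under the upper quartile, so the difference may be too small. Asb11 no longer passed with the Xist level as a covariate or with any array but WT replicate 2 left out. Its adjusted limma p ran from 0.00697 to 0.118 over the alternatives, which were applied to it after seeing the data. Gcnt1 (0.36), Klf10 (0.36), Scn4b (0.39) and Dusp1 (0.39) followed, of which Klf10 and Dusp1 are themselves induced as immediate early genes. Nearest to Fos were Arhgap31 (0.31), Zc2hc1a (0.33), Angptl1 (0.33), Mtus1 (0.34) and Abtb2 (0.34). The distance was taken over 6 arrays and part of it is the genotype difference itself. A gene near Egr1 in profile is thus likely to be lower in KO, and the p of Asb11 cannot be read as a separate result. The KO means of Asb11, Klf10 and Arhgap31 were 4.39, 4.37 and 4.39, and only their WT means lay above the upper quartile.

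Within the arrays of high Xist, KO replicates 2 and 3 against WT replicate 3, the difference was -1.39 for Egr1, -0.62 for Jun, -0.51 for Ier2, -0.50 for Myc and -0.42 for Phlda1. Within those of low Xist, KO replicate 1 against WT replicates 1 and 2, it was -1.29 for Egr1, -0.89 for Jun, -0.74 for Ier2, -0.64 for Myc and -0.76 for Phlda1. Junb differed by 0.65 in the first and by 1.90 in the second. The groups of these 6 genes do not overlap, which fixes their signs in any such split, so only the sizes are informative. Fos differed by -1.12 in the first and by -0.05 in the second. Each of these has 1 array on one side and no test.

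A wider list of 35 other immediate early and rapidly induced genes, all measured, had 14 lower and 21 higher in KO, with a median of 0.08. By limma 1 passed, Per1, a period protein of the circadian clock, which rose. It measured 4.35, 4.26 and 4.35 in KO, against 3.47, 3.35 and 3.68 in WT, a difference of 0.82 that may be too small since all values lay under the upper quartile (adjusted limma p 0.0253). Per1 no longer passed with the Xist level as a covariate or with any of 5 single arrays left out, WT replicate 3 being the exception, and its adjusted p ran from 0.0175 to 0.154 over the alternatives. At an unadjusted limma p under 0.05, 5 were lower and 5 higher, where the shares of all genes were 5.58% and 4.55%. The groups did not overlap with KO lower in 4 and with KO higher in 6, where the shares of all genes were 7.56% and 6.87%. These shares apply to each further list as well, and 50.2% of all genes were lower in KO. The next smallest p belonged to Nfil3, a bZIP repressor, at -0.56, to Mcl1, an inhibitor of apoptosis, at 0.46, and to Cebpd, a C/EBP family factor, at 0.35 (adjusted limma p 0.135, 0.175 and 0.351). Dusp1, a phosphatase that inactivates MAP kinases, measured 5.19, 5.26 and 5.34 in KO replicates 1, 2 and 3, against 5.46, 5.78 and 6.45 in WT replicates 1, 2 and 3, with the highest WT value again in replicate 3. Of the nearest relatives of the 10 in this list, Egr2 differed by -0.23 below the array median, Egr3 by 0.14 and Egr4 by 0.08. Fosl2 differed by 0.24, Jund by 0.21 and Ier5 by -0.02. The groups overlapped in each of these. Ier5l differed by 0.19 with KO higher in all arrays, but only KO replicate 2 lay above the array median.

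The list of feedback genes that ERK induces also holds Ccnd1. Of its 11 measured members 9 were lower in KO, where 50.2% of all genes were lower. Among the 9, Spred1, Etv4 and Spry4 differed by only -0.01, -0.01 and -0.03, and Spred2 was higher by 0.55 with overlapping groups. The list had a median of -0.09 and 0 past the threshold by limma, and 2 of its members, both lower, had an unadjusted p under 0.05. They are Spry2, an inhibitor of receptor tyrosine kinase signalling, at -0.53, and Dusp4, a nuclear MAP kinase phosphatase, at -0.23 under the array median. Ccnd1, cyclin D1, differed by -0.26. Etv5, an ETS factor, measured 4.33, 2.60 and 2.58 in KO replicates 1, 2 and 3, against 6.00, 4.25 and 2.90 in WT replicates 1, 2 and 3. Its arrays spread more within each genotype than the means differed (-1.22, adjusted limma p 0.676).

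Among the kinases and factors that act on these promoters, 10 of 15 measured genes were lower, with a median of -0.03, and by limma 0 passed, with 2 lower and 0 higher at an unadjusted p under 0.05. The smallest p belonged to Rps6ka3, the kinase RSK2 downstream of ERK, at -0.35, Map2k1, which encodes MEK1, at -0.23, Mapk14, which encodes p38 alpha, at -0.19, and Srf at 0.23. The list of bZIP partners had 9 of 13 lower and a median of -0.06, with 0 past the threshold by limma and 1 lower and 2 higher at an unadjusted p under 0.05. Mafk differed by 0.25, Batf by 0.27, Atf4 by -0.32 and Atf2 by -0.20. The lists share genes and are not separate counts. Jund, Fosl2, Atf3 and Maff of the bZIP list, Srf above and Zfp36 of the mRNA decay list are also among the other immediate early genes. Atf3 is among the stress genes as well. Over all genes the median difference was -0.00.

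**Figure D4:**
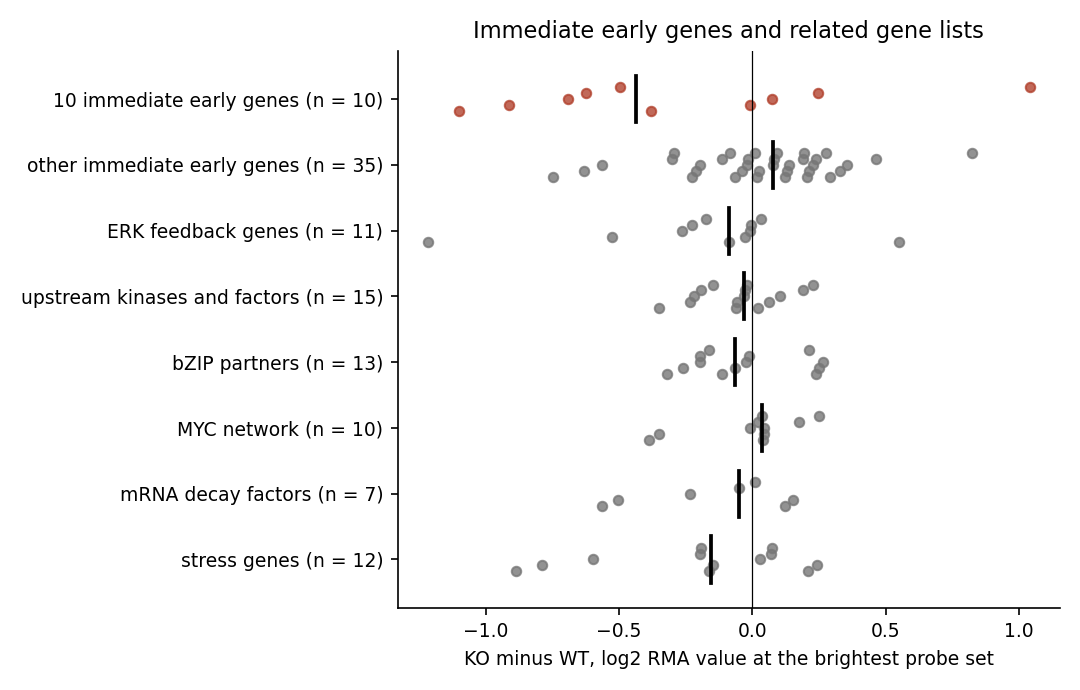
KO minus WT log2 differences of single genes at their brightest probe set (points) in the 10 immediate early genes and in related lists, with the list median as a black bar. The 10 genes have a median of -0.44 with Junb apart at 1.04, and the 35 other immediate early genes have a median of 0.08. The list of ERK feedback genes also holds Ccnd1, and some genes stand on several lists.

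Several measures of the samples moved with genotype or with single arrays, and their part in the results above was not tested. Of the 12 stress and handling genes 7 were lower in KO and 0 passed by limma, with 3 lower and 2 higher at an unadjusted p under 0.05, and their summed level, as the log2 of summed linear values, was 11.17 to 11.38 in KO and 11.31 to 11.84 in WT. Among them the cell cycle inhibitor Cdkn1a measured 6.71, 6.20 and 6.37 in KO replicates 1, 2 and 3, against 7.75, 7.38 and 6.81 in WT replicates 1, 2 and 3. The chaperones Hsph1 and Hspa8 differed by -0.79 and -0.60 and were lowest among the WT arrays in replicate 3, as were Jun and Phlda1, while the co-chaperone Dnajb1 differed by 0.24. Hspa8 and Hsp90aa1 were the largest terms of the summed level of the stress genes. Hspb1 differed by 0.21 with groups apart and Hspa1b by -0.19 with overlapping groups, and Hspa1a lay under the array median in all 6 arrays. Stellate cell and fibroblast markers were lower in 10 of 10, where 50.2% of all genes were lower (summed level 11.68 to 12.18 in KO and 12.25 to 12.59 in WT). The largest term of that sum was the collagen gene Col3a1, which differed by -0.50. The groups did not overlap in 4 of the 10 markers, while Pdgfra, Pdgfrb and Des differed by -0.05, -0.02 and -0.08 with overlapping groups. Duct markers were higher in 4 of 6 (9.76 to 9.88 in KO and 9.51 to 9.53 in WT). The largest term of the duct sum was Muc1, a membrane mucin, at 9.14 ± 0.20 in KO and 8.55 ± 0.07 in WT (SD, n = 3 each). Sox9 differed by 0.52 with groups apart, and Krt7 by 0.24 with overlapping groups. Krt19 and Epcam differed by -0.26 and -0.22, and Cftr lay under the array median. The groups overlapped in the summed level of immune markers (8.16 to 9.50 in KO and 8.78 to 9.09 in WT) and of endothelial markers (7.27 to 7.46 in KO and 7.40 to 7.51 in WT). They also overlapped for fat markers (9.73 to 10.42 in KO and 10.21 to 11.05 in WT) and for the 4 measured blood markers (5.53 to 5.74 in KO and 5.43 to 5.69 in WT). Adipoq, which defines fat cells, measured 2.26 in KO replicate 1, the array with the highest Junb, and 5.65 or more in the other KO arrays. Signal of Actb at its 3' end exceeded that at its 5' end by 1.89 ± 0.13 in KO arrays and by 1.89 ± 0.11 in WT arrays (SD, n = 3 each; exact two-sided permutation p = 1, the smallest possible being 0.1), and that of Gapdh by 0.93 ± 0.10 in KO arrays and by 0.82 ± 0.18 in WT arrays (SD, n = 3 each; exact two-sided permutation p = 0.5). The bacterial spike controls bioB, bioC and bioD had a mean of 10.09 ± 0.10 in KO arrays and of 9.88 ± 0.07 in WT arrays (SD, n = 3 each; exact two-sided permutation p = 0.1).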

How the data were processed

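Whole pancreas RNA of 3 KO and 3 WT mice was measured on Affymetrix arrays, and samples were grouped by the genotype in their titles. The deposited log2 values, 1 per probe set and array, came from the RMA method of affy, per the submitters' processing notes. Its settings and versions are not stated in the sources. RMA equalises the arrays, so a shift shared by most genes cannot be seen, and the deposited table holds no detection calls. The number of arrays limits the precision.

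The values were used without further normalization. After 64 control probe sets were left out, 45037 were tested in R 4.3.3 with limma 3.58.1, functions lmFit and eBayes (KO minus WT, two-sided, no covariate), with Benjamini-Hochberg adjustment over all of them and a threshold of 0.05. In all 44 probe sets passed. A gene was read at the brightest of its probe sets with 1 annotated gene. Symbols were updated by Entrez identifier through a RefSeq table for 34754 of 34958 such probe sets. Single values per array were compared by exact permutation tests. Promoters came from RefSeq (GRCm38.p6). The fit was also run on simulated data.

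The 10 genes and all lists were chosen with earlier results of these data known. Named are the 10 genes, Pebp1, list members past the threshold, the 4 of smallest p in each list and the 5 nearest profiles to Egr1 and Fos. Egr2, Egr3, Egr4, Fosl2, Jund, Ier5, Ier5l, Spred1, Spred2, Spry4, Etv4, Adipoq and the 6 measured duct markers were named after their values were seen. So were Ptf1a, Bhlha15, Rbpjl, Col3a1, Pdgfra, Pdgfrb, Des, Hsp90aa1, Hspb1, Hspa1a and Hspa1b. Atf3, Maff and Zfp36 were named for standing on several lists. Alternatives were other normalizations, a filter on dim probe sets, other variance models, weights per array, a block for replicate number, an Xist covariate, other probe set summaries and thresholds, and leaving out each array. Figures were drawn with matplotlib 3.10.9.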

Additional observations from a re-analysis of the deposited data

How the results depend on the processing

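Over 16 alternatives, 6 or 7 of the 10 genes were lower in KO. Egr1, Jun, Ier2, Myc and Phlda1 were lower and Junb and Fosl1 higher in every alternative in which they were measured. Fosb and Fosl1 dropped out with dim probe sets removed, and Myc and Ier3 with suffixed probe sets removed. The number of the 10 past the threshold was 0, except 1 with the replicate block (Egr1, -1.10, adjusted limma p 0.0207) and 1 without WT replicate 3 (Jun). The count over the 12 probe sets was the same, and over the arrays left out both ran from 0 to 1. Over all alternatives the adjusted p of Egr1 ran from 0.0207 to 0.608. The labels do not say that replicate numbers pair the mice. Deviations of same-numbered arrays correlated at 0.19, -0.03 and -0.08, and those of differently numbered arrays at -0.16 to 0.18. These values cannot settle whether replicate numbers pair the mice. With the block 33 probe sets passed, against 44 without it.

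Signs turned for genes of small difference. Fos ran from -0.64 to 0.0016 over the arrays left out, the highest being without WT replicate 3. Fosb was at 0.0072 with array weights and ran from -0.061 to 0.077 over the arrays left out, with a positive sign when KO replicate 1, KO replicate 3 or WT replicate 1 was dropped. Ier3 ran from -0.029 to 0.195, being negative without KO replicate 1 (-0.0075) or WT replicate 1. The whole-table count of 44 was 22 with the Xist covariate, 25 without suffixed probe sets, 76 at an adjusted p under 0.1, and 16 to 41 with an array left out. Asb11 stayed lower and Per1 higher in the alternatives that measured them, which were applied to both after seeing the data; suffixed probe sets include that of Asb11. The other immediate early genes past the threshold numbered 0 with the Xist covariate and 0 to 1 with an array left out. A fit on fewer arrays, or with a covariate, has fewer degrees of freedom, and the cause of these changes was otherwise not tested. No alternative background correction was run, since the deposited values are already corrected.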

Other observations

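Factors that shorten or steady short-lived mRNAs were read as a further list. Of 7 measured, 4 were lower in KO, with a median of -0.05, and by limma 0 passed, with 2 lower and 0 higher at an unadjusted p under 0.05. Zfp36l1 and Zfp36l2, which bind AU-rich elements and promote decay, were the 2. Zfp36l1 measured 8.31, 7.90 and 8.08 in KO replicates 1, 2 and 3, against 8.57, 8.65 and 8.76 in WT replicates 1, 2 and 3 (-0.56, adjusted limma p 0.205). Zfp36l2 measured 6.71, 6.99 and 7.02 in KO replicates 1, 2 and 3, against 7.50, 7.46 and 7.29 in WT replicates 1, 2 and 3 (-0.50, adjusted limma p 0.232). Their groups did not overlap. Elavl1, which binds the same kind of element and stabilises mRNAs, differed by -0.23, and Hnrnpd by 0.15, with overlapping groups.

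In the network of MYC partners and antagonists 3 of 10 were lower in KO, the median was 0.04, and by limma 0 passed, with 2 lower and 1 higher at an unadjusted p under 0.05. Max, the partner that MYC needs to bind DNA, measured 4.22, 4.22 and 4.44 in KO replicates 1, 2 and 3, against 4.75, 4.72 and 4.46 in WT replicates 1, 2 and 3, a difference of -0.35. The antagonist Mxi1 differed by -0.39 with overlapping groups, Mga by 0.25 and Mxd4 by 0.17. The KO arrays of Max lay under the upper quartile, so its difference may be too small.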
